A study of Mus musculus with 6 samples.

Results

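Endothelial identity genes and the genes that mark arteries, veins and lymphatic vessels were followed in quadriceps muscle of wild-type and ERRgamma transgenic mice. The group comprised 45 genes listed by name, and every probe set on the array that is annotated to exactly 1 of them. Of the 45, 44 had such a probe set (81 probe sets in all), out of 18193 genes with a probe set of their own on the array. Ly6c1, a surface protein of endothelial cells, had none. Tissue came from male C57/BL6 mice of 8 weeks, 3 per genotype, and each array is titled as a separate biological replicate. In the transgenic mice a skeletal actin promoter drives the orphan nuclear receptor ERRγ; this promoter directs expression in muscle fibres and not in the vessel wall. The wild-type animals are labelled with no transgene, both groups carry the same strain, age and sex labels, and the number of transgenic founder lines is not given in the sources used here.

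Endothelial cells line every blood vessel. Their identity is set by transcription factors of the ETS, SOX, GATA and Krüppel-like families, and is visible in the junction proteins that seal neighbouring cells, in receptors for angiogenic and flow signals, and in caveolae and water channels. Arterial endothelium is marked by Notch receptors and ligands, by ephrin-B2 and by the connexins that couple arterial cells, whereas venous endothelium carries the ephrin receptor EphB4, and lymphatic endothelium is specified by Prox1. Skeletal muscle is supplied mainly by capillaries that run along the fibres, and oxidative fibres are known for a denser capillary supply than glycolytic ones.

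The promoters of the group were looked at first, because ETS factors that are themselves in the group (Erg, Fli1 and Ets1) bind many endothelial promoters. RefSeq start sites of build GRCm38.p6 were available for 24 of the 45 genes, with 32 promoters, and 6 of those genes are among the 19 described below as higher in transgenic muscle. In the 250 bases before the start, the ETS letters AGGAAG were searched on both strands. They were present in 12 of the 32 promoters (37.5%), against 29.5% of all 32851 promoters. Of the 6, Ephb4 and Klf2 held 0 matches, and the letters were present in the other 4 (66.7%). These 4 promoters are shown 5′ to 3′ on the gene's strand, each ending at the base before the start, with matches to AGGAAG or its complement CTTCCT in capitals. They lie at chr6:55336049-55336298 (Aqp1), chr3:137340828-137341077 (Emcn), chr2:32646345-32646594 (Eng) and chr17:34564045-34564294 (Notch4), all on the plus strand.
Aqp1: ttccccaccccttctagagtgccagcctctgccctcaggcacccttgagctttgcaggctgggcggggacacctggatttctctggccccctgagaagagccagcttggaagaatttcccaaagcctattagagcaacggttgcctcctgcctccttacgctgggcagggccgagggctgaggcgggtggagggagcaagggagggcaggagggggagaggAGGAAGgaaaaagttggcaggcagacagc
Emcn: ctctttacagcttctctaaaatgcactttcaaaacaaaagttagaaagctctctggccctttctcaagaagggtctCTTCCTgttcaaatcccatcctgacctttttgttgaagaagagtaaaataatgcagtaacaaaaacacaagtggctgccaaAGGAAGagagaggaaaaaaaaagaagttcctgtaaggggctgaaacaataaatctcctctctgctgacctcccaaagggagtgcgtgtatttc
Eng: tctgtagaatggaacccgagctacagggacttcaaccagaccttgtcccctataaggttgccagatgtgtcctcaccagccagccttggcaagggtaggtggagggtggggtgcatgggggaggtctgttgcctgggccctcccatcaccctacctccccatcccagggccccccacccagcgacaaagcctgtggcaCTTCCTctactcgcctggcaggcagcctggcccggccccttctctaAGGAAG
Notch4: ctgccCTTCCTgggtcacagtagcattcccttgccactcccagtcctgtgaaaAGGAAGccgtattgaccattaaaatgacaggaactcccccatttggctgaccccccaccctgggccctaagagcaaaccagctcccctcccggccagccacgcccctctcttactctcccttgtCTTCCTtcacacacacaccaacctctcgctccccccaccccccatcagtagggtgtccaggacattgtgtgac

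Aqp1 held 1 match, at position -29 from the start, Emcn and Eng held 2 each, and Notch4 held 3. Emcn was the only 1 of the 32 promoters with the ERR letters AAGGTCA (3.12%, against 4.08% of all promoters), at position -153 on the opposite strand. The SOX letters ACAATG were in 2 of the 32 (6.25%, against 10.7%), in 1 promoter each of Notch4 and Erg. The Krüppel-like factor letters CCACACC were in 1 (3.12%, against 6.52%), the Tal1 E-box letters CAGATG in 4 (12.5%, against 14.4%) and the RBPJ letters GTGGGAA in 0 (against 5.42%). In the 6 promoters of genes that rose, the ERR, SOX and Tal1 E-box letters were each in 1 (16.7%). The Krüppel-like factor and RBPJ letters were in 0 of the 6. Every motif was searched on both strands, matches of different motifs can overlap, and a match to letters is a description of the window and not of a bound site.

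Before the genes were compared, the arrays were checked. The brightest probe set of Esrrg, which encodes ERRγ, gave signals of 71.6, 61.0 and 24.1 in wild-type 1, 2 and 3 and 14427, 13808 and 12697 in transgenic 1, 2 and 3, while the other Esrrg probe sets differed by 0.40 and 0.35 on the log2 scale and did not pass the test. Median signals were 52.1 to 56.3 in wild-type and 57.1 to 61.9 in transgenic arrays with a trimmed mean of 200 on every array as deposited. The muscle markers Ckm, Acta1, Tnnc2 and Myh4 were at 13245.5 or more on every array. The brightest probe sets of the endothelial markers Pecam1 and Cdh5 were at 202.6 or more on every array. Wild-type 3 stood apart in adipocyte genes, with a summed signal for the 4 on the array (Adipoq, Cidec, Retn and Lep) that reached 11532, against 3097 at the lowest wild-type array.

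Endothelial identity genes were higher in transgenic muscle as a group. A probe set was tested where its mean signal over the 6 arrays exceeded 37.8, the 40th percentile, and a gene was represented by its brightest probe set. This left 41 of the 44 genes. Gja5, Tal1 and Prox1 were too dim to be tested. At a limma adjusted p under 0.05, 19 of the 41 rose (46.3%), 0 fell and 22 did not pass, where 958 of all 12532 genes tested rose (7.64%) and 721 fell (5.75%). At an unadjusted p under 0.05 the counts were 30 higher and 0 lower, against 1943 and 1548 of all 12532 genes tested. Of the 41 differences 40 were positive, against 6740 of the 12532. The median log2 difference was 0.66, against 0.03 over all genes tested, and the differences ran from -0.26 (Lyve1) to 1.32 (Esam). In 27 of the 41 genes every transgenic signal lay above every wild-type signal, an arrangement found in 18.6% of all genes tested, and in 0 genes did it lie below, against 14.7%. In bulk muscle, a difference in the number of endothelial cells and a difference in RNA per cell cannot be told apart.

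**Figure D1:**
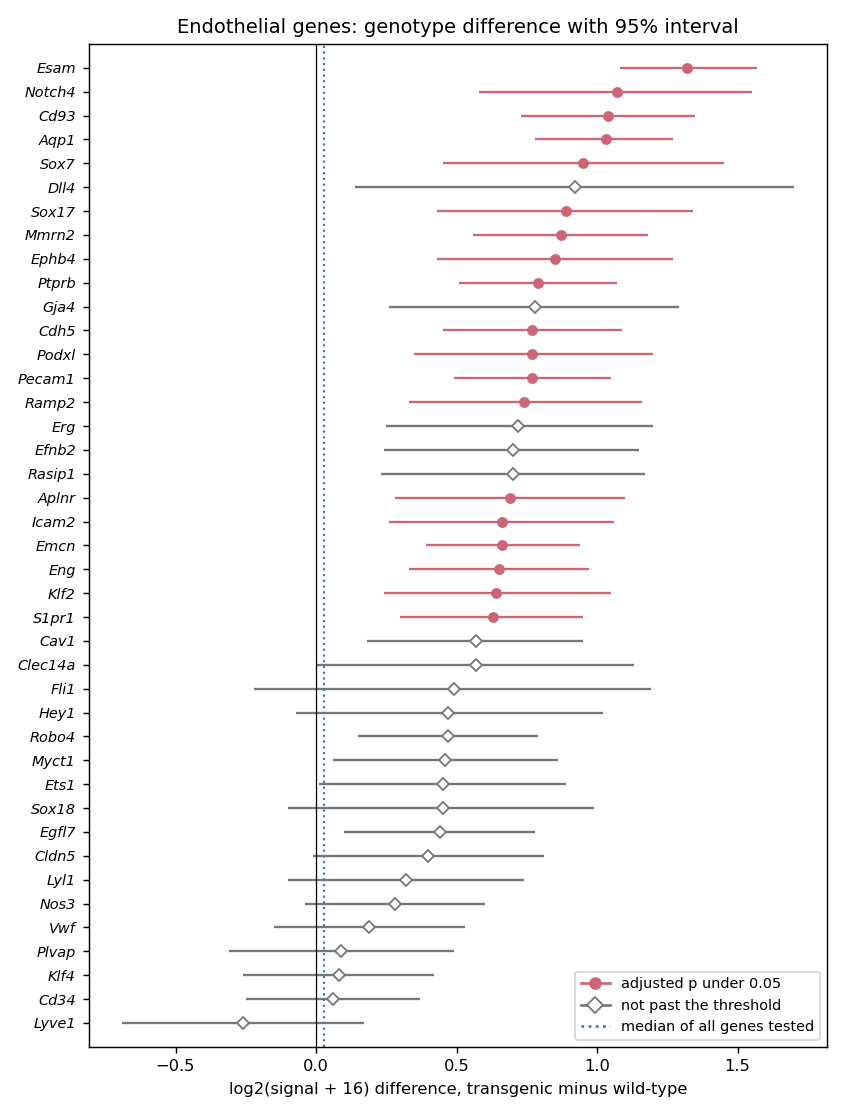
Difference between transgenic and wild-type muscle for the 41 tested endothelial genes, on the log2(signal + 16) scale, with the 95% interval of the limma fit to 3 arrays per genotype. Filled circles passed an adjusted p of 0.05, open diamonds did not, and the dotted line is the median of all genes tested, 0.03; the 19 filled circles all lie to its right, and Lyve1 has the lowest value, -0.26.

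How many genes passed depended on single arrays. The count was 9 without wild-type 1, 11 without transgenic 3, and between 14 and 24 without any other array. Wild-type 1 had the lowest wild-type signal in 24 of the 41 genes, and wild-type 3 and transgenic 3 each had the highest of their genotype in 24. The median over the 41 genes, measured from the wild-type mean, was -0.13, 0.00 and 0.15 in wild-type 1, 2 and 3 and 0.53, 0.60 and 0.72 in transgenic 1, 2 and 3, so that the genotypes did not overlap. Esam, Cd93, Aqp1, Mmrn2, Ptprb, Cdh5, Pecam1, Emcn and Notch4, 9 of the 19, passed with any 1 array left out. Scaling the arrays to the same median moved the median of all genes from 0.03 to -0.11 and the split of calls from 958 higher and 721 lower to 543 higher and 1232 lower. Under it 10 of the 41 rose and 0 fell. Relative to the median of all genes the members' median was 0.62 under that scaling and 0.63 as deposited.

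**Figure D2:**
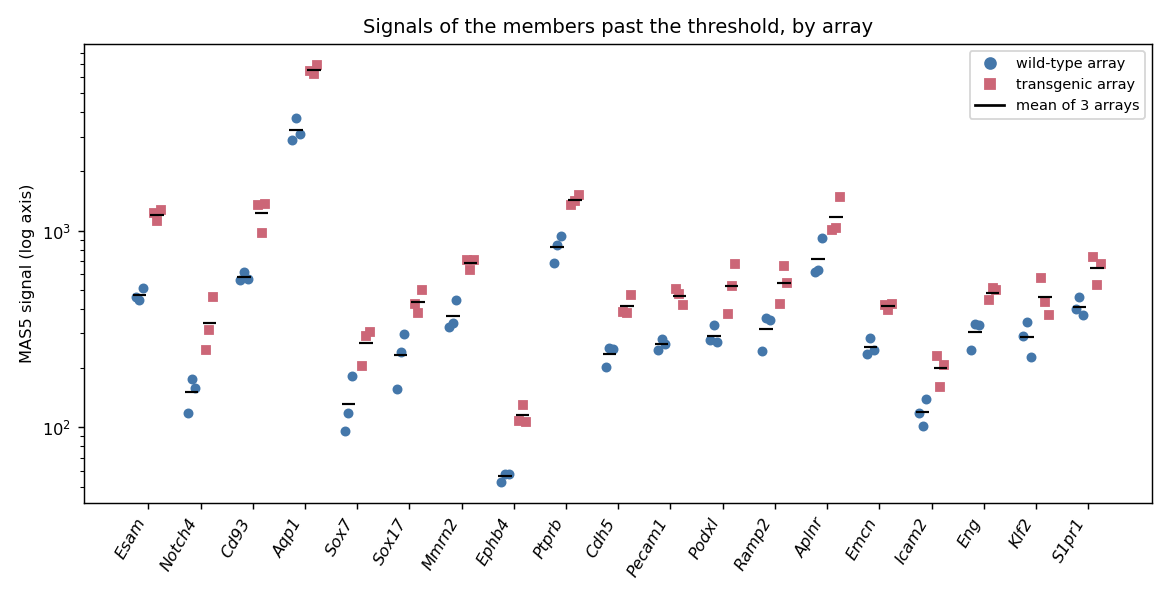
MAS5 signal (log axis) on each of the 6 arrays for the 19 endothelial genes that rose, with circles for wild-type arrays, squares for transgenic arrays and a bar at the mean of 3. In each of the 19 genes every square lies above every circle; signals of different genes come from different probes and are not to be compared in height.

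Junction and adhesion proteins had 6 of 8 genes higher, with a median log2 difference of 0.72. Signals are given throughout in the order of wild-type 1, 2 and 3 against transgenic 1, 2 and 3. Esam, an adhesion molecule of endothelial tight junctions, gave 459.2, 445.0 and 511.7 in wild-type 1, 2 and 3 and 1230, 1115 and 1266 in transgenic 1, 2 and 3. All transgenic values were above all wild-type values, with a ratio of means of 2.55 and a log2 difference of 1.32 (SE 0.11, limma adjusted p = 6.28e-05). Pecam1, the platelet and endothelial adhesion molecule also found on leukocytes, gave 248.5, 279.8 and 266.4 against 502.7, 475.5 and 417.1, a difference of 0.77 (SE 0.13, limma adjusted p = 0.00319). Cdh5, VE-cadherin of the adherens junction, gave 202.6, 252.8 and 250.8 against 387.4, 379.2 and 473.1, likewise 0.77 (SE 0.14, limma adjusted p = 0.00662), and its dimmer probe set differed by 0.59 without passing (adjusted p = 0.0753). Each of these genes was higher in 3 of 3 transgenic arrays than in any wild-type array.

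Of the sialomucins of the endothelial surface, Emcn and Podxl rose and Cd34 did not pass. Emcn, endomucin of capillaries and veins, gave 235.4, 283.2 and 247.5 against 419.3, 397.0 and 423.4, a difference of 0.66 (SE 0.13, limma adjusted p = 0.00697). Podxl, podocalyxin, gave 278.2, 329.3 and 271.2 against 376.3, 521.9 and 675.5, and both of its probe sets passed, at 0.77 (SE 0.19, adjusted p = 0.0256) and 0.75 (adjusted p = 0.0363). Cd34, the third of these sialomucins and also a marker of muscle progenitors and fibroblasts, gave 585.9, 595.0 and 605.5 against 650.7, 501.6 and 734.8. Transgenic 2 lay below and the others above every wild-type array, and the difference of 0.06 had a 95% interval of -0.25 to 0.37. Icam2, a ligand of leukocyte integrins, gave 118.9, 101.3 and 139.1 against 231.8, 159.5 and 206.8, a difference of 0.66 (SE 0.18, limma adjusted p = 0.0404). Cldn5, claudin-5 of tight junctions, gave 202.3, 185.7 and 307.6 against 320.4, 272.9 and 320.4 and overlapped through wild-type 3; its difference of 0.40 did not pass (limma adjusted p = 0.202) and passed without wild-type 3 at 0.61 (adjusted p = 0.0251). The calls of Podxl and Icam2 held in 2 of the 6 fits with 1 array left out, where the largest adjusted p were 0.0896 without wild-type 1 and 0.143 without transgenic 1.

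Receptors and signalling proteins had 6 of 10 genes higher, with a median of 0.67 and non-overlapping genotypes in 9. Cd93, a C-type lectin receptor that binds multimerin-2 of the vascular matrix, gave 563.7, 618.1 and 565.7 in wild-type 1, 2 and 3 and 1343, 973.1 and 1370 in transgenic 1, 2 and 3. This amounted to 1.04 (SE 0.14, limma adjusted p = 0.00108); a second probe set rose by 0.82 while the remaining tested ones, did not pass at 0.12 and 0.40. Ptprb, the phosphatase VE-PTP that acts on VE-cadherin and the Tie2 receptor, gave 687.1, 844.1 and 935.6 against 1344, 1409 and 1518, a difference of 0.79 (SE 0.13, limma adjusted p = 0.00288). Its second probe set rose by 0.90, and its dimmest one did not pass at 0.63 (adjusted p = 0.121). Of the genes of this group these were the ones that passed with any 1 array left out.

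Eng, endoglin, a co-receptor for BMP and TGF-β ligands, gave 247.0, 335.1 and 329.9 against 443.3, 508.4 and 497.0, and both of its probe sets rose, by 0.65 (SE 0.14, limma adjusted p = 0.0158) and 0.73. S1pr1, the sphingosine-1-phosphate receptor that stabilises vessels, gave 401.6, 458.6 and 371.5 against 736.8, 528.3 and 675.0, a difference of 0.63 (SE 0.15, limma adjusted p = 0.0199). Ramp2, the partner that turns the calcitonin receptor-like receptor into an adrenomedullin receptor, gave 244.1, 358.3 and 350.3 against 424.3, 661.4 and 544.2, a difference of 0.74 (SE 0.19, limma adjusted p = 0.0290). Further probe sets that name Ramp2 together with Vps25 differed by 0.11 and -0.03 and did not pass (adjusted p = 0.720 and 0.918). Aplnr, the apelin receptor, enriched in veins and in sprouting capillaries, gave 615.2, 631.4 and 915.2 against 1005, 1034 and 1475, with wild-type 3 the highest wild-type and transgenic 3 the highest transgenic array. Its difference was 0.69 (SE 0.18, limma adjusted p = 0.0353), and its dimmer probe set overlapped between genotypes at 0.07 (adjusted p = 0.875). The calls of Eng, S1pr1 and Ramp2 held in 3 of the 6 fits with 1 array left out and that of Aplnr in 1, with largest adjusted p of 0.0674, 0.0869, 0.112 and 0.135.

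The other receptors and signalling genes did not pass. Robo4, a receptor that maintains the endothelial barrier, differed by 0.47 (limma adjusted p = 0.0624) and Rasip1, which is needed for vessel lumens, by 0.70 (adjusted p = 0.0592), both without overlap of the genotypes. Without wild-type 3 these were 0.54 (adjusted p = 0.0461) and 0.92 (adjusted p = 0.0111). Without wild-type 1 they were 0.43 (adjusted p = 0.185) and 0.55 (adjusted p = 0.194). Clec14a, a lectin of the same family as Cd93, gave 78.3 in transgenic 1, below all wild-type arrays (84.0, 79.2 and 84.9), against 154.9 and 177.2 in transgenic 2 and 3. It differed by 0.57 (limma adjusted p = 0.194). The difference was 0.88 without transgenic 1 (adjusted p = 0.0222) and 0.36 without transgenic 3 (adjusted p = 0.448). Nos3, endothelial nitric oxide synthase, gave 240.6, 257.2 and 332.0 against 332.8, 336.9 and 340.8. The genotypes did not overlap, with wild-type 3 next to transgenic 1, and the difference of 0.28 did not pass (95% interval -0.04 to 0.60, limma adjusted p = 0.250).

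Of the transcription factors, 3 of the 9 tested rose, with a median of 0.49. The SOX F factors Sox7, Sox17 and Sox18 act together in vessel and arterial development. Sox7 gave 96.1, 118.8 and 181.8 in wild-type 1, 2 and 3 and 204.0, 290.4 and 306.1 in transgenic 1, 2 and 3, a ratio of 2.02 and a log2 difference of 0.95 (SE 0.23, limma adjusted p = 0.0212). Sox17, the arterial member, gave 157.1, 241.9 and 299.0 against 421.4, 383.1 and 496.0 (0.89, SE 0.21, limma adjusted p = 0.0189), and its dimmer probe set, at 100.3, 99.8 and 104.8 against 202.9, 225.3 and 175.5, rose by 0.88 (adjusted p = 0.00477). Sox18 gave 170.8, 219.5 and 360.7 against 255.5, 399.1 and 357.6. Wild-type 3 lay above transgenic 1 and 3, and the difference of 0.45 did not pass (95% interval -0.10 to 0.99, limma adjusted p = 0.288). Without wild-type 3 it was 0.73 (adjusted p = 0.0399), and without wild-type 1 it was 0.22 (adjusted p = 0.653). The call of Sox7 was lost in 4 of the 6 fits with 1 array left out (largest adjusted p 0.0836, without wild-type 1), and that of the brighter Sox17 probe set in 3 (largest 0.0727, without transgenic 3).

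The flow-responsive factors Klf2 and Klf4 differed in value. Klf2, which shear stress induces and which maintains a quiescent endothelium, gave 291.2, 343.8 and 228.2 against 571.4, 435.3 and 373.3, a difference of 0.64 (SE 0.19, limma adjusted p = 0.0482). This call lay at the threshold: it held in 2 of the 6 fits with 1 array left out, with a largest adjusted p of 0.171 without transgenic 1. Klf4, which epithelial and smooth muscle cells express as well, gave 636.6, 536.9 and 543.5 against 764.0, 552.1 and 522.5, and its probe sets differed by 0.08 and 0.06 (95% interval of the brighter -0.26 to 0.42). The difference between these genes was not tested.

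The ETS factors were positive but did not pass. Erg, the ETS factor most restricted to endothelium, gave 100.9, 81.1 and 115.1 against 126.4, 180.6 and 222.8, without overlap, a difference of 0.72 (SE 0.21, limma adjusted p = 0.0538), and it passed in 6 of 18 alternative fits, among them those without wild-type 3 (adjusted p = 0.0469) and without transgenic 1 (adjusted p = 0.0268). Fli1 gave 139.2, 166.9 and 197.5 against 313.3, 120.6 and 354.4, and Ets1 310.7, 313.6 and 371.8 against 425.9, 347.1 and 644.7. In both, transgenic 2 was the low transgenic array, and the differences of 0.49 and 0.45 did not pass (limma adjusted p = 0.377 and 0.187). Without transgenic 2 the difference of Fli1 was 0.94 (adjusted p = 0.0135), and without transgenic 3 it was 0.22 (adjusted p = 0.725). Both factors are also abundant in leukocytes. Lyl1, shared by blood and endothelial cells, differed by 0.32 (adjusted p = 0.330), and its relative Tal1, at 29.8, 21.2 and 32.9 against 36.0, 60.9 and 34.3, was not tested.

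Among the secreted proteins, Mmrn2, multimerin-2, an extracellular matrix ligand of Cd93 and Clec14a, gave 322.0, 340.5 and 444.1 against 704.8, 631.0 and 709.4. The genotypes were well separated, with a difference of 0.87 (SE 0.14, limma adjusted p = 0.00287), and 3 of its 4 probe sets rose, the exception giving 0.29 (adjusted p = 0.476). Egfl7, a matrix-bound factor that regulates vessel tube formation, rose at 2 of its 4 probe sets, by 0.57 and 0.91. Its brightest one gave 381.5, 515.3 and 545.2 against 567.9, 687.7 and 708.4 and did not pass (0.44, limma adjusted p = 0.0930), nor did the remaining one (0.64, adjusted p = 0.0516). Vwf, von Willebrand factor, stored in endothelial granules of larger vessels and in platelets, gave 276.1, 263.5 and 201.9 against 261.4, 315.8 and 268.7. It overlapped between genotypes at 0.19 (95% interval -0.15 to 0.53, limma adjusted p = 0.495).

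Of the channel, caveola and other surface genes, Aqp1 rose. Aqp1, the water channel of capillary endothelium and red cells, had signals of 2888, 3729 and 3077 in wild-type 1, 2 and 3 and 6489, 6260 and 6939 in transgenic 1, 2 and 3, a ratio of 2.03 and a log2 difference of 1.03 (SE 0.11, limma adjusted p = 2.88e-04). Cav1, caveolin-1 of caveolae in endothelial cells and adipocytes, gave 3154, 3059 and 5183 against 5335, 5608 and 5438. Wild-type 3, the array with the highest adipocyte signals, lay near the transgenic arrays, and the part of adipocytes in this value was not tested. The difference of 0.57 did not pass (limma adjusted p = 0.0614). Without wild-type 3 it was 0.81 (adjusted p = 2.89e-04), and without wild-type 2 it was 0.43 (adjusted p = 0.202). Myct1, a membrane protein of endothelial cells, rose at 1 of 4 probe sets, by 0.52 (adjusted p = 0.0370), and its brightest did not pass at 0.46 (adjusted p = 0.136). Plvap, which forms the diaphragms of fenestrae and caveolae, gave 305.4, 242.1 and 193.4 against 267.0, 296.3 and 220.5, a difference of 0.09 (95% interval -0.31 to 0.49).

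The arterial and Notch genes had a median of 0.78 over the 5 tested, against 0.66 over all members and 0.40 over 12 further genes of this kind described below. Of the 5, 1 passed at its brightest probe set. Notch4, the Notch receptor of endothelial cells, gave 117.8, 175.5 and 159.1 in wild-type 1, 2 and 3 and 248.4, 313.8 and 457.7 in transgenic 1, 2 and 3. Its ratio of means was 2.25 and its difference 1.07 (SE 0.22, limma adjusted p = 0.0105), which gave an adjusted p of 0.0522 without the intensity trend in eBayes. Dll4, the Notch ligand of arterial and sprouting tip cells, gave 24.9, 80.1 and 106.6 against 150.1, 145.5 and 105.0. Wild-type 1 was far below the rest, and wild-type 3 overlapped transgenic 3; the difference of 0.92 had a wide interval (0.14 to 1.70) and did not pass (limma adjusted p = 0.128), and it was 1.24 without wild-type 3 (adjusted p = 0.0398). Hey1, a Notch target, gave 72.4, 59.1 and 121.1 against 121.3, 96.5 and 142.2 and did not pass at 0.47 (adjusted p = 0.258).

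Efnb2, ephrin-B2, the arterial partner of EphB4, gave 106.4, 132.4 and 119.6 against 236.4, 143.2 and 245.5 at its brightest probe set. This was a difference of 0.70 (SE 0.20, limma adjusted p = 0.0521). Efnb2 differed by 0.93 without transgenic 2 (adjusted p = 0.0107) and by 0.60 without transgenic 1 (adjusted p = 0.173). At its second probe set, 67.7, 88.0 and 56.5 against 167.2, 131.0 and 160.1, it rose by 0.97 (adjusted p = 0.00971), and at its dimmest by 1.24 (adjusted p = 0.0365), while the remaining one did not pass at 0.41 (adjusted p = 0.416). Gja4, connexin 37, gave 44.5, 62.7 and 71.6 against 97.6, 95.9 and 148.9, without overlap, and did not pass at 0.78 (adjusted p = 0.0580). Gja5, connexin 40, stayed at or below 8.6 on every array. On the venous side, Ephb4 gave 52.6, 58.2 and 58.3 against 108.2, 129.7 and 107.0, a ratio of 2.04 and a difference of 0.85 (SE 0.19, limma adjusted p = 0.0157), which held in 4 of the 6 fits with 1 array left out (largest adjusted p 0.0626, without transgenic 2). Without the filter on low signal the limma adjusted p of Ephb4 was 0.0515. Thus Notch4 and 2 of the 4 Efnb2 probe sets rose, as did Ephb4, which is the 1 venous member. The 5 further venous genes described below had a median of 0.06. No test compared arterial with venous genes.

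**Figure D3:**
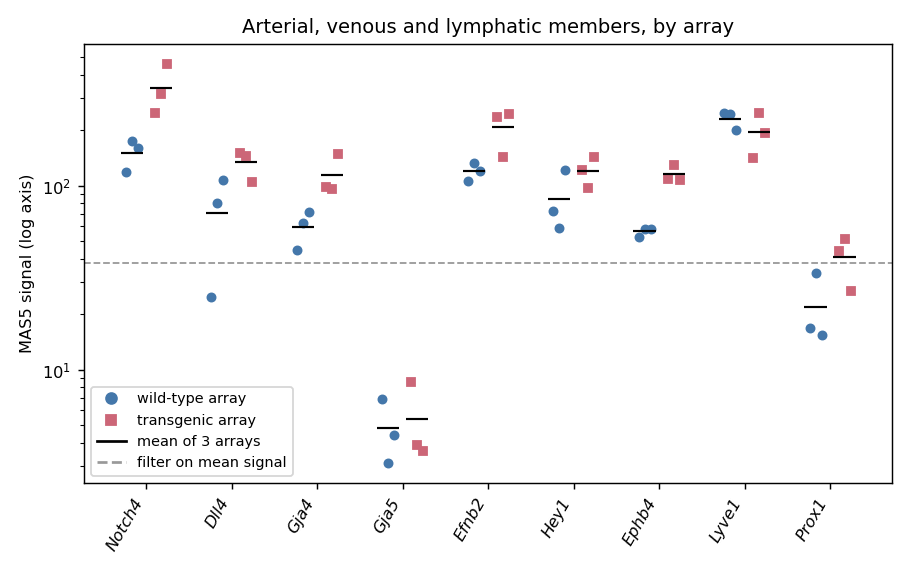
MAS5 signal (log axis) on each of the 6 arrays for the arterial and Notch genes, the venous gene Ephb4 and the lymphatic genes, with circles for wild-type, squares for transgenic and a bar at the mean of 3; the dashed line is the filter on mean signal, 37.8. Notch4, Gja4, Efnb2 and Ephb4 show no overlap, Gja5 and Prox1 lie around or below the filter, and Lyve1 overlaps.

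Of the lymphatic members Lyve1 was tested, and it did not pass. Lyve1, a hyaluronan receptor of lymphatic endothelium that resident macrophages also carry, gave 247.3, 244.1 and 201.1 against 140.3, 249.3 and 193.9. Its probe sets differed by -0.26 and -0.29, neither past the threshold (limma adjusted p = 0.449 and 0.335), and were the only negative ones among the 69 tested probe sets of the group. Prox1, the lymphatic master regulator, which slow muscle fibres also express, gave 16.9, 33.5 and 15.5 against 43.9, 51.2 and 26.8 at its brightest probe set, below the filter. Of the 4 other lymphatic genes tested (Flt4, Pdpn, Reln and Mmrn1), 0 passed, also at an unadjusted p under 0.05, with a median of -0.14. Flt4, the receptor for lymphangiogenic VEGF ligands, differed by 0.37 (adjusted p = 0.320) and Pdpn, podoplanin, by -0.13 (adjusted p = 0.580).

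Whether single genes moved by more or less than the group was examined by centring each array on the median deviation of the 41 genes, an analysis chosen after the data were seen. On this scale 4 genes had a 95% interval above 0: Esam at 0.69 (0.36 to 1.03), Notch4 at 0.44 (0.01 to 0.87), Cd93 at 0.41 (0.06 to 0.77) and Aqp1 at 0.40 (0.05 to 0.75). The interval lay below 0 in 5 genes: Vwf at -0.44 (-0.86 to -0.02), Plvap at -0.54 (-1.0 to -0.08), Klf4 at -0.55 (-0.95 to -0.15), Cd34 at -0.57 (-0.92 to -0.21) and Lyve1 at -0.88 (-1.34 to -0.43). These intervals are not adjusted for the 41 genes looked at, and they treat the median used for centring as known. Each gene stands here by its brightest probe set. Before centring, the other tested Cd93 probe sets differed by 0.82, 0.12 and 0.40, where the group's median was 0.66. The remaining 32 intervals held 0.

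Tested probe sets of 1 gene had the same sign in every gene, though not the same call. Of the 69 tested probe sets, 31 rose, 0 fell and 38 did not pass, where 6.37% of all 26999 probe sets tested rose and 5.16% fell. Among the 16 genes with at least 2 tested probe sets, all rose in 3 (Eng, Sox17 and Podxl), some rose and some did not pass in 8 (Cdh5, Egfl7, Mmrn2, Ptprb, Aplnr, Myct1, Cd93 and Efnb2), and none passed in 5. Counting a gene by any of its probe sets, 22 of the 41 rose, with Egfl7, Myct1 and Efnb2 added.

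Of 22 further endothelial genes tested, 13 rose and 0 fell, with a median of 0.68, where 7.64% of all genes tested rose and 5.75% fell. This list and those below, like the members, were chosen with earlier results of these data known, so they are not independent of them. Of the 22 differences 20 were positive and 2 negative. The 1 gene lower at an unadjusted p under 0.05 was Rgcc, at -0.45 (limma adjusted p = 0.145). The largest rises were those of Car4, a carbonic anhydrase on the capillary surface, from 169.6 ± 63.6 to 405.4 ± 124.8 (SD, n = 3; log2 difference 1.19), and of Adgrf5, an adhesion receptor, from 893.7 ± 103.5 to 1913 ± 154.1 (SD, n = 3; 1.09). Of 12 further Notch and arterial genes, 3 rose and 0 fell (6 higher and 0 lower at an unadjusted p under 0.05). Their median was 0.40, with 9 differences positive and 3 negative. Those that rose were Unc5b, a netrin receptor of arteries and tip cells (1.03), Nrp1, a VEGF co-receptor (0.80), and the Notch target Hes1 (0.63). Of 5 further venous genes, Nr2f2, the factor that specifies veins, rose by 0.52, and 0 fell (1 higher and 1 lower at an unadjusted p under 0.05). The median of the venous list was 0.06, with 3 differences positive and 2 negative. Ackr1, a chemokine-binding receptor of venules, gave 159.5, 200.1 and 194.0 against 119.5, 141.1 and 127.0, without overlap, and did not pass at -0.46 (adjusted p = 0.0846). Selp and Vcam1, adhesion molecules for leukocytes, were at 0.06 and -0.10 and did not pass. Rgcc, Hes1, Ackr1, Selp and Vcam1 were chosen for naming after their values were seen.

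Markers of other cells were read beside these values. Of all 12532 genes tested, 7.64% rose, 5.75% fell and 5792 differences were negative. At an unadjusted p under 0.05, 1943 of them were higher and 1548 lower. Of 9 mural genes tested, Kcnj8 (0.82) and Rgs5 (0.76) rose and 0 fell (5 higher and 1 lower at an unadjusted p under 0.05). Of these 9 differences 8 were positive and 1 negative, with a median of 0.36. The summed signal over the 10 on the array was 11541 to 13581 in wild-type and 15263 to 17594 in transgenic arrays. Within that sum the mean of Rgs5 went from 5183 to 8773 and that of Abcc9, which did not pass, from 3890 to 3155, so the sum does not describe the list's genes evenly. Of 14 leukocyte genes, Lyz2 fell by 0.55 and 0 rose (6 lower and 0 higher at an unadjusted p under 0.05), and 13 of the 14 differences were negative. The summed signal of the 16 on the array was 4465 to 5202 in wild-type and 3322 to 4068 in transgenic arrays. Of 9 fibroblast genes, Dpt fell by 0.48 and 0 rose (4 lower and 0 higher at an unadjusted p under 0.05), and all 9 differences were negative, with summed signals of 32988 to 37912 and 30898 to 31185. The leukocyte and fibroblast lists had medians of -0.41 and -0.29. Among members that blood cells, platelets or macrophages also express, Pecam1, Icam2, Cd93, S1pr1 and Aqp1 rose. Fli1, Ets1, Lyl1, Vwf and Lyve1, also found there, did not pass, at 0.49, 0.45, 0.32, 0.19 and -0.26. The genes named are not a full list of such members, and the split between them was not tested. The summed signal of the 44 endothelial genes, 15925 to 19988 in wild-type and 28033 to 31063 in transgenic arrays, did not overlap between genotypes. Within it the mean of Aqp1 went from 3231 to 6563 and that of Cav1, which did not pass, from 3799 to 5460. This sum, too, does not describe its genes evenly.

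The remaining lists gave few calls. Of 3 platelet genes, 0 passed (1 lower at an unadjusted p under 0.05), and Pf4 (-0.30, adjusted p = 0.189) and Gp1bb (0.52, adjusted p = 0.224) had opposite signs. In the adipocyte list 0 of 4 passed, also at an unadjusted p under 0.05, with a median of -0.75; Cidec (-0.92) and Adipoq (-0.73) varied widely, Adipoq giving 3217, 2367 and 8412 in wild-type arrays against 2293, 4186 and 1446. Of 2 erythroid genes 0 passed (1 higher at an unadjusted p under 0.05), with Alas2 at 0.73 (adjusted p = 0.112) and Slc4a1 at -0.01. Of 3 Schwann cell genes 0 passed, also at an unadjusted p under 0.05, with Sox10 at 0.39 and Mbp at 0.23. Of 5 muscle fibre genes, Mb, myoglobin, rose by 1.45. The part of other cell types in the values of the endothelial genes was not tested.

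**Figure D4:**
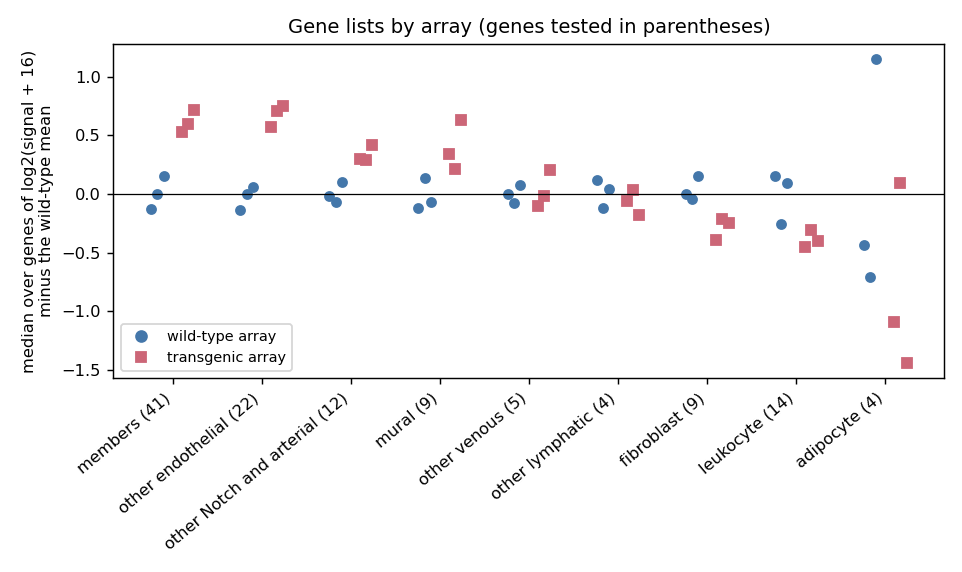
Median over the tested genes of each list of log2(signal + 16) minus the wild-type mean, on each of the 6 arrays, with circles for wild-type and squares for transgenic. The endothelial members lie at -0.13 to 0.15 in wild-type and 0.53 to 0.72 in transgenic arrays, leukocyte genes at -0.26 to 0.15 and -0.45 to -0.31, and adipocyte genes spread most, from -1.44 to 1.15.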

How the data were processed

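Biotinylated cRNA from total RNA of quadriceps was prepared with an Affymetrix protocol, per the labels' protocols. Deposited values are linear signal intensities made with MAS5, per the submitters' processing notes; its version, settings and detection calls were not given in the sources used here. Signals were used as log2(signal + 16), which understates changes of dim genes. Of 45101 probe sets, 64 controls were left out, and 26999 with a mean signal above 37.8 were tested with limma 3.58.1 in R 4.3.3 (lmFit, eBayes with intensity trend, two-sided, Benjamini-Hochberg over all tested probe sets, threshold 0.05). The test was checked on simulated data. Precision is limited by having 3 arrays a genotype, and an exact permutation test of 1 value could not go below 0.1.

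The platform annotation named 1 gene for 34945 probe sets and several for 932, and 9160 are unnamed here; 34741 of the first matched the RefSeq gene table of GRCm38.p6 by Entrez identifier, with 0 symbols changed. A gene was represented by its brightest probe set. All 45 members were to be named, with full statistics for those past the threshold and with probe sets that disagreed; from each other list, the 2 genes with the largest change among those that passed, or else the smallest p. Members and lists were chosen with earlier results of these data known. Alternatives changed the constant, the filter, the scaling, eBayes settings, weights on arrays, a block on replicate number, how probe sets were combined, and the arrays included. Plots used matplotlib 3.10.9.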

Additional observations from a re-analysis of the deposited data

Results flagged for a closer look

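Some probe sets that name a member were outside the comparison of member genes, because they name several genes or lie below the filter. The group had 81 single-gene probe sets, of which 69 were tested, and 3 more probe sets name a member with another gene. Those described here were picked because every transgenic signal exceeded every wild-type one, an arrangement found in 18.6% of all genes tested. That share was counted on brightest tested probe sets, so it does not cover probe sets below the filter. How many were picked is therefore not read as a result. The others overlapped between genotypes, with ratios of transgenic to wild-type means from 0.41 (a Prox1 probe set) to 2.11 (a Notch4 probe set). The probe set that names Ly6c2 and Ly6c1 gave 1493, 1854 and 1752 in wild-type 1, 2 and 3 and 2402, 2875 and 3081 in transgenic 1, 2 and 3, with means of 1699 ± 186.1 and 2786 ± 347.9 (SD, n = 3 each). It cannot be assigned to either gene; on its own it differed by 0.71 (SE 0.12, limma adjusted p = 0.00452). A second Erg probe set, below the filter, gave 7.3, 5.8 and 9.6 against 50.5, 46.1 and 26.4, with a transgenic mean of 41.0. Tal1 gave a wild-type mean of 28.0 and a transgenic mean of 43.7, with its highest wild-type value, 32.9, next to its lowest transgenic value, 34.3.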

How the results depend on the processing

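Over 18 alternatives the count of endothelial genes that fell stayed at 0, and 8 of the 19 that rose (Esam, Cd93, Aqp1, Mmrn2, Ptprb, Cdh5, Pecam1 and Emcn) passed under each. The count of 19 was 10 after scaling the arrays to the same median, where the members' median was 0.52, and 9 without the intensity trend in eBayes. With 1 array left out it ran from 9 (without wild-type 1) through 11 (without transgenic 3) to 24 (without wild-type 3), and the median difference from 0.58 to 0.73. With the replicate block it was 21, with Cav1 and Erg added, and deviations of same-numbered arrays correlated at 0.070, -0.077 and -0.022, so the numbers were not taken to pair animals. Of 738 values of single genes, 68 no longer passed, 29 newly passed and 0 reversed a call; 13 genes that did not pass as reported passed under at least 1 alternative. The causes were not tested. Without detection calls, whether the dimmest probe sets (Gja5, Prox1 and Tal1) were detected is not given.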
